A study of Homo sapiens with 2 samples.

Results

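The ZNF genes make up the largest named group of human zinc finger genes, and their transcripts were compared between KYN2 cells with a knockdown of HSF1 and their control cells. The genes were chosen by detection: they have at least 1 probe whose symbol is ZNF followed by a number and whose deposited detection value was above 0.99 on at least 1 array, where that value is 1 minus the detection p. Of 629 ZNF probes for 448 genes, 257 probes for 220 genes met this rule, and 372 probes were detected on neither array. KYN2 is an established cell line of human hepatocellular carcinoma, a cancer of liver cells. Per the labels, the first group is KYN2 with a plasmid-borne shRNA against HSF1, kept as a stable line under puromycin, and the second is KYN2 labelled as HSF1 control, with no statement of what the control cells carried or whether a line is 1 clone. HSF1 is a DNA-binding factor that activates chaperone genes when proteins misfold. Each group was measured on 1 Illumina HumanWG-6 BeadChip, so no difference has a replicate check, no test is possible and no p-value is given.

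ZNF proteins carry zinc fingers, short folds held by a zinc ion between cysteines and histidines, which in most of them stand in rows and read DNA. Many also carry a KRAB domain, which binds the corepressor TRIM28 and through it draws in the histone methyltransferase SETDB1, heterochromatin proteins and histone deacetylases. The family grew by repeated local duplication, and its largest clusters lie on chromosome 19. Several members outside the KRAB group act in other ways, among them in ribosome assembly and quality control, in mitosis and at promoters.

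The arrays carry their labels' names throughout, because the HSF1 probes did not settle the knockdown. The brighter HSF1 probe had a signal of 58.2 on the knockdown-labelled array and 164.3 on the control array, but its deposited detection value was 1.0 on the knockdown-labelled array, against 0.99473 on the control array, so signal and detection ran opposite ways. Its detection value was out of order on both arrays. Other probes reached 1.0 from signals of 119.7 on the knockdown-labelled array and 160.6 on the control array. The other HSF1 probe had signals of 81.3 on the knockdown-labelled array and 77.9 on the control array and was detected on neither. Signals over all 48802 probes had a median of 59.8 on the knockdown-labelled array and 61.5 on the control array. Detection began at signals of 91.8 on the knockdown-labelled array and 97.4 on the control array, with that HSF1 probe left aside. All 10 listed liver genes on the array, such as ALB and APOA1, were detected on at least 1 array. Their 17 probes summed to 94575.0 on the knockdown-labelled array and 78711.4 on the control array, but they differed in both directions. APOB had 631.8 (knockdown-labelled) against 2566.0 (control), a difference of -1.91. FGB was detected on the control array alone, and AFP and TTR on the knockdown-labelled array alone. None of 6 fibroblast or stellate genes and none of 4 endothelial genes was detected. Of 5 myeloid genes, 3 were detected, and their 11 probes summed to 1997.4 on the knockdown-labelled array and 1306.9 on the control array. Of these, the knockdown-labelled array alone detected LYZ and CD14. CD68 was detected on both arrays, with 353.5 (knockdown-labelled) against 521.9 (control) by its brightest probe, a difference of -0.50. Another CD68 probe had 195.2 (knockdown-labelled) against 193.4 (control), a difference of 0.08. CSF1R was detected on neither array, and neither was PTPRC, which marks all white blood cells. The part of such cells in the results below was not tested, and in RNA from bulk cells fewer cells of a type and less RNA per cell cannot be told apart.

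Heat shock elements, the kind of site HSF1 binds, were as frequent in promoters of the ZNF members as in all promoters. Of the 220 member genes, 190 had a promoter in RefSeq (GRCh38.p14), with 250 windows in all because 42 genes had several starts. The 250 bases before each start were searched on both strands. A heat shock element of 2 units, GAANNTTC or TTCNNGAA, stood in 29 of the 250 windows (11.6%), against 11.6% of 35116 windows of all genes and 9.25% of 10697 windows of genes detected here. Elements of 3 units, in which another GAA or TTC follows at the same spacing and alternates in direction, overlap those of 2 units and stood in 0 windows of members and in 0.441% of all windows. A different motif was more frequent. The ZNF143-type site, read as ACTACA, any 3 bases and then CCCA, is part of the site bound by ZNF143 and ZNF76. It was searched for after it was seen in the sequences below, and it stood in 26 of the 250 windows (10.4%), against 1.51% of all windows and 2.94% of those of detected genes. Promoters copied with their genes share sequence, so the windows are not independent. CCAAT stood in 44.4% of member windows, against 32.0% of all windows and 34.1% of those of detected genes, and GGGCGG in 60.4% of member windows, against 42.6% of all windows and 63.6% of those of detected genes. The median GC content was 62.0% in member windows, 64.4% in those of detected genes and 58.0% in all windows.

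The 5 promoters below are those of ZNF467, whose signals had the largest ratio between the arrays among probes detected on both, of ZNF486 and ZNF549, which were higher on the knockdown-labelled array, and of ZNF586 and ZNF787, which were lower. They are the 250 bases before the start, 5′ to 3′ on the gene's strand, from RefSeq (GRCh38.p14), and capitals mark heat shock elements of 2 units and ZNF143-type sites. They lie at chr7:149773589-149773838 on the minus strand (ZNF467), chr19:20166964-20167213 on the plus strand (ZNF486), chr19:57527106-57527355 on the plus strand (ZNF549), chr19:57769426-57769675 on the plus strand (ZNF586) and chr19:56121296-56121545 on the minus strand (ZNF787).
ZNF467: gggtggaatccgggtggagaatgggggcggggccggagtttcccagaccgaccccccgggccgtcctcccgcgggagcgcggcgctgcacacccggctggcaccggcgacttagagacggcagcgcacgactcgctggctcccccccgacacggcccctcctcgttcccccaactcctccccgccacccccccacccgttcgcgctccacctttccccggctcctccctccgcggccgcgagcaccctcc
ZNF486: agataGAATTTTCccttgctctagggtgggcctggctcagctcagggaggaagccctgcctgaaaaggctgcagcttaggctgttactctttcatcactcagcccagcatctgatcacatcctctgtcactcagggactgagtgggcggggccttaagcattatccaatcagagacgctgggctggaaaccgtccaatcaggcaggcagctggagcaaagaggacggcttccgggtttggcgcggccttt
ZNF549: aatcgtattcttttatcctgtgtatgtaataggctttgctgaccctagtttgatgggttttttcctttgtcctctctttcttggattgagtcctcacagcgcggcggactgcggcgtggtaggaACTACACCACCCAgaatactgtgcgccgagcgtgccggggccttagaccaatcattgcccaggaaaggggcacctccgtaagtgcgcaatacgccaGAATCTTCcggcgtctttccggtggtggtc
ZNF586: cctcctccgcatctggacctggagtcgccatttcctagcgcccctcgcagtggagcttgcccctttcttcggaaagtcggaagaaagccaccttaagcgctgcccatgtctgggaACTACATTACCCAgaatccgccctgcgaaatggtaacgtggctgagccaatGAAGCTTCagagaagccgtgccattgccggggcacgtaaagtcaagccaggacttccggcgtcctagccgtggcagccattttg
ZNF787: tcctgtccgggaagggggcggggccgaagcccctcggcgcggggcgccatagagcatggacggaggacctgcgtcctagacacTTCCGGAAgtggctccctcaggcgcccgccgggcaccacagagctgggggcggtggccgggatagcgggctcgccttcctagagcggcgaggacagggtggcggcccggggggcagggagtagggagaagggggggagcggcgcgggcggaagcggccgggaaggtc
ZNF549 and ZNF586, genes of 1 cluster on chromosome 19, each held a heat shock element and a ZNF143-type site, and their transcripts differed in opposite directions. The ZNF467 window held neither. A match is a description of letters and shows no binding.

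ZNF transcripts differed in both directions, and the share of lower probes was smaller than over all named probes. Levels are normalized log2 values, and a difference is the knockdown-labelled array minus the control array. A probe was called higher or lower at a difference of at least 2-fold. Of 200 ZNF probes detected on both arrays, for 172 genes, 18 probes of 18 genes were higher, 9 probes of 8 genes were lower and 173 lay within 2-fold. The 18 higher probes are 9.0% of the 200, beside 9.53% of the 9346 probes with 1 gene symbol detected on both arrays. The 9 lower probes are 4.5%, beside 10.4% of the 9346. Called either way were 27 probes or 13.5%, beside 19.9% of the 9346. The median difference was 0.09 over ZNF probes and -0.07 over the 9346, and the interquartile range was 0.74 for ZNF and 0.98 for the 9346. At 4-fold, 1 ZNF probe was higher and 0 were lower, beside 2.66% of the 9346 called either way.

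ZNF probes were dimmer than most, and the counts were therefore also taken by signal. Member signals had a median of 143.4 on the knockdown-labelled array and 142.4 on the control array, against 265.2 on the knockdown-labelled array and 278.9 on the control array over 11204 named probes detected on either. Among probes with a mean signal under 300, 7.04% of 142 ZNF probes were higher and 3.52% lower, beside 8.02% and 9.78% of 3976 named probes. At a mean signal of 300 or more, 13.8% of 58 ZNF probes were higher and 6.9% lower, beside 10.7% and 10.9% of 5370. The share of lower ZNF probes was below that of named probes in both signal ranges.

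**Figure D1:**
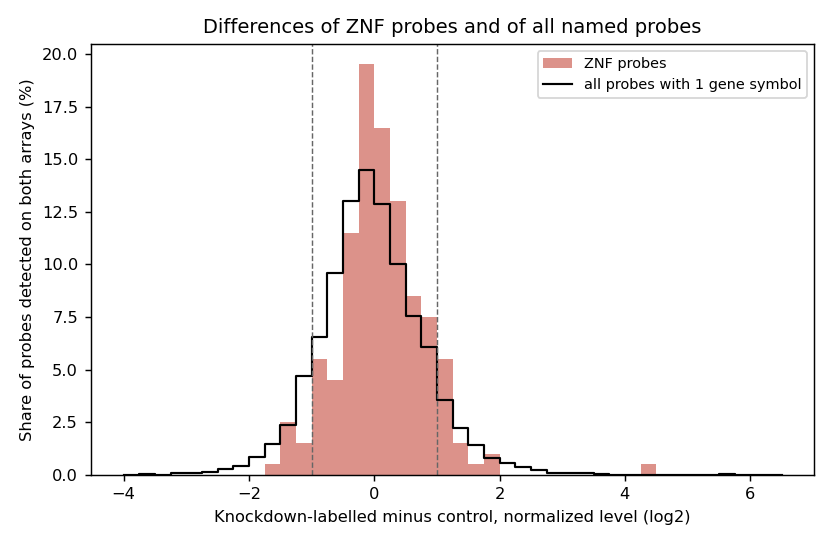
Share of probes detected on both arrays (vertical axis, percent) by the knockdown-labelled minus control difference in normalized level (horizontal axis, log2) for 200 ZNF probes (bars) and 9346 probes with 1 gene symbol (line); dashed lines mark 2-fold. ZNF probes crowd nearer 0, with 18 at or beyond the right line and 9 at or beyond the left.

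ZNF467 stood far from the other members detected on both arrays. In mouse it is known for steering precursor cells toward fat and away from bone. The ZNF467 probe had a signal of 1484.2 on the knockdown-labelled array and 116.2 on the control array, and its normalized levels were 10.60 on the knockdown-labelled array and 6.24 on the control array. The difference was 4.36, or 20.5-fold higher. On the control array it lay close above the detection limit, with a detection value of 0.99473. The difference of the authors' processed values was 3.72, and that without background correction 3.61. The next among members detected on both arrays differed by 1.86.

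Among the other 17 higher probes, differences ran from 1.02 to 1.86, and 8 of the 18 higher probes lay on chromosome 19. ZNF462, a large nuclear protein needed in development, had a signal of 255.8 on the knockdown-labelled array and 101.4 on the control array, a difference of 1.86 or 3.62-fold. ZNF580 had 237.0 on the knockdown-labelled array and 97.8 on the control array (1.82). ZNF280C, described in human cells as a restraint on the trimming of broken DNA ends, had 419.7 (knockdown-labelled) against 160.5 (control), a difference of 1.74. For ZNF462 and ZNF580 the control signal lay within a few units of the detection limit, so the size of their folds rests on a dim value. ZNF189 had a signal of 648.7 on the knockdown-labelled array and 304.6 on the control array (1.32). ZNF341, an activator of the STAT3 gene, had 309.4 (knockdown-labelled) against 154.1 (control), a difference of 1.31, and ZNF408, whose mutations cause a disease of retinal vessels, had 355.2 (knockdown-labelled) against 176.4 (control), a difference of 1.29. These 3 had detection values of at least 0.99868 on both arrays. Brighter still were ZNF486, with 2963.5 on the knockdown-labelled array and 1505.9 on the control array (1.21), ZNF549, with 1585.5 (knockdown-labelled) against 811.9 (control), a difference of 1.18, and ZNF14, with 902.1 (knockdown-labelled) against 468.2 (control), a difference of 1.15. ZNF76, the close relative of ZNF143, had 173.5 on the knockdown-labelled array and 101.0 on the control array (1.16), and its difference was 0.71 without background correction, under 2-fold. The other higher members were ZNF682 by its brighter probe (1.21), ZNF219 (1.13), ZNF358 (1.12), ZNF670 (1.08), ZNF823 (1.08), ZNF613 (1.05) and ZNF200 (1.02). ZNF670 and ZNF200 each had another probe detected on both arrays that was not called, at 0.63 for ZNF670 and 0.14 for ZNF200.

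The lower probes were fewer and 7 of the 9 lay on chromosome 19. ZNF544 had a signal of 293.5 on the knockdown-labelled array and 900.8 on the control array, a difference of -1.63 or 3.08-fold lower. ZNF586 was measured by a pair of probes that gave nearly the same difference. One had 124.0 on the knockdown-labelled array and 274.1 on the control array (-1.44), and the other 234.8 (knockdown-labelled) against 588.9 (control), a difference of -1.39. ZNF696 had 184.1 on the knockdown-labelled array and 454.9 on the control array (-1.43). ZNF787 was the brightest of the lower group on the control array, with 891.9 on the knockdown-labelled array and 2212.2 on the control array (-1.17). The remaining 4 were dim, with signals of 92.7 to 111.3 on the knockdown-labelled array, and were 1 probe each of ZNF682 (-1.36), ZNF789 (-1.32), ZNF585A (-1.14) and ZNF480 (-1.10). Just short of 2-fold were ZNF146 (-0.96), ZNF593 (-0.96) and ZNF573 (-0.94). With 4 alternative treatments of the signals, 16 of the 27 called probes were at least 2-fold in every one. These 16 were the probes of ZNF467, ZNF462, ZNF580, ZNF280C, ZNF189, ZNF408, ZNF486, ZNF549, ZNF14 and ZNF358 and the brighter of ZNF682 among the higher ones, and those of ZNF787, ZNF586, ZNF696 and ZNF544 among the lower.

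**Figure D2:**
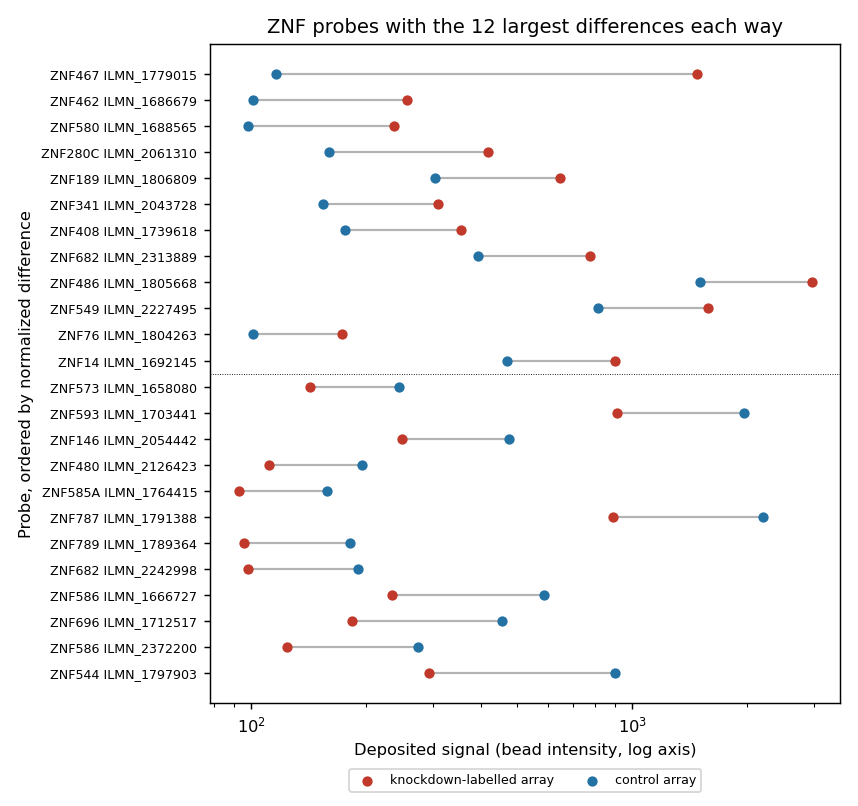
Deposited signal (horizontal log axis, bead intensity) of the 12 ZNF probes with the largest difference each way, the knockdown-labelled array in red and the control array in blue, with 1 value per array and a line joining them. ZNF467 has the widest gap, 1484.2 on the knockdown-labelled array against 116.2 on the control array, and the probes below the dotted line have the higher signal on the control array.

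The other members were detected on 1 array alone, 34 on the knockdown-labelled array and 23 on the control array, and by the rule for this group they had to differ in detection. That is 13.2% and 8.95% of the 257 members, beside 9.98% and 6.6% of 11204 named probes detected on either array. With a stricter detection threshold the counts were 74 on the knockdown-labelled array alone and 6 on the control array alone. That threshold was met from a signal of 119.7 on the knockdown-labelled array but only from 160.6 on the control array. No share over all named probes is given for it, so those counts are not read as a result about the members. For the 34 and 23 probes above, the level on the detecting array was set against the other array's lowest detected level. Their own level on the other array was used if higher, which gives a bound. On the normalized scale the bound reached 2-fold for 5 probes of 4 genes on the knockdown-labelled array and 1 probe on the control array, beside 23.0% of 1118 and 25.1% of 740 named probes of the same kinds. Those counts rest on the background correction: without it 0 bounds reached 2-fold on either side, beside 10.7% and 9.19% of named probes. The folds below are therefore the smallest bound over the reported treatment of the signals and 3 others. ZNF75D had signals of 201.5 and 160.8 for its pair of probes on the knockdown-labelled array, against 82.7 and 77.5 on the control array, and was at least 1.95-fold higher by the first probe and at least 1.57-fold by the second. ZNF425 had 187.0 on the knockdown-labelled array and 61.2 on the control array and was at least 1.82-fold higher. ZNF688, with 172.7 on the knockdown-labelled array and 89.6 on the control array, was at least 1.68-fold higher. ZNF182, with 162.9 on the knockdown-labelled array and 96.5 on the control array, was at least 1.59-fold higher, and ZNF605 at least 1.43-fold. ZNF385B, detected on the control array alone, had 64.6 on the knockdown-labelled array and 196.7 on the control array and was at least 1.94-fold lower. The next among probes that the control array alone detected were at least 1.46-fold lower for ZNF362, 1.44-fold for ZNF431, 1.43-fold for ZNF215, 1.43-fold for ZNF784 and 1.38-fold for ZNF777.

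**Figure D3:**
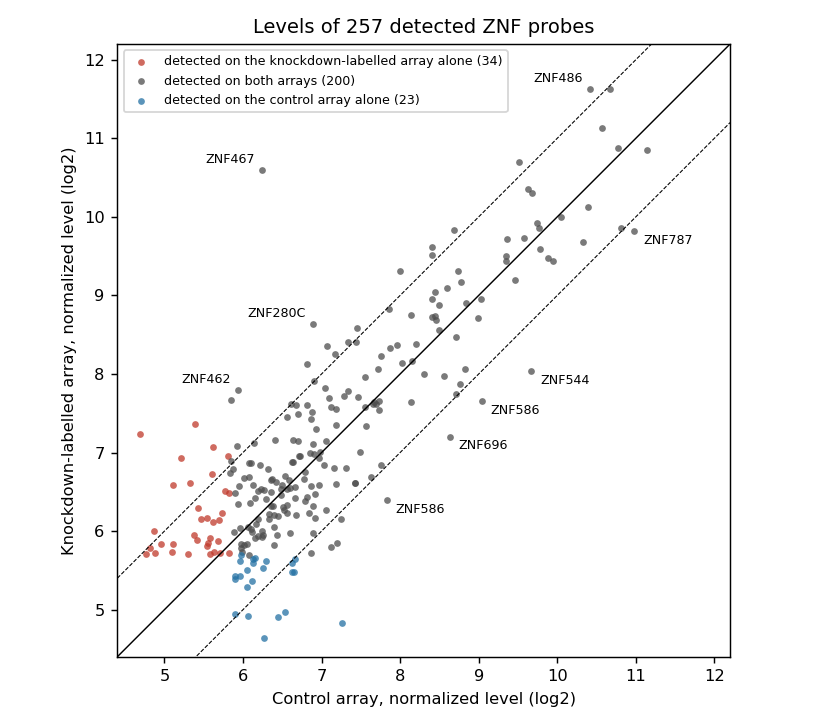
Normalized log2 level of each of 257 member probes on the knockdown-labelled array (vertical axis) against the control array (horizontal axis), coloured by the array or arrays that detected it; the solid line is equality and dashed lines are 2-fold. ZNF467 lies farthest from the line of equality, at 10.60 on the knockdown-labelled array and 6.24 on the control array.

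Chromosome 19 held 85 of the 220 member genes, and its probes were about as often higher as lower. Of 75 chromosome 19 ZNF probes detected on both arrays, 8 were higher and 7 lower, which is 10.7% and 9.33%, beside 7.47% and 10.6% of 576 named probes of that chromosome. Their median difference was -0.04, against -0.12 over the 576, and it was above 0 at 0.08 without quantile normalization and at 0.07 with a stricter detection threshold. Of 125 ZNF probes on other chromosomes, 10 were higher and 2 lower, which is 8.0% and 1.6%, beside 9.67% and 10.4% of 8768 named probes there. The median was 0.11, against -0.07 over the 8768. The 2 lower ones were ZNF696 on chromosome 8 and ZNF789 on chromosome 7. On chromosome X, ZNF280C was higher on the knockdown-labelled array, ZNF75D and ZNF182 were detected there alone, and ZNF275 was at -0.41. Over 289 named chromosome X probes detected on both arrays, 55 were called higher, 21 were called lower and the median was 0.16, and the part of the chromosome in the ZNF result was not tested.

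Neighbouring genes differed in both directions in many runs, but not in all. In the largest run of neighbouring members, 13 genes from ZNF264 to ZNF586 on chromosome 19 with at most 5 other protein-coding genes between neighbours, 10 genes were detected on both arrays by their brightest probe. Of these, ZNF549 was higher (1.18), ZNF586 lower (-1.39), and the median was -0.13. ZNF211 in the same run was at 0.78 and ZNF17 at -0.51. In the run of 9 genes from ZNF101 to ZNF493, 6 were detected on both arrays, and ZNF14, ZNF682 by its brighter probe and ZNF486 were higher at 1.15 to 1.21, with ZNF430 just under 2-fold at 0.96. ZNF626 in that run was at -0.28 and ZNF101 at -0.25, and ZNF431 was detected on the control array alone. The run of 10 genes from ZNF653 to ZNF791 had a median of 0.26 over 9 genes, with ZNF823 higher (1.08) and 0 lower. The run of 8 genes on chromosome 7 that ends with ZNF467 had a median of 0.37 over the 6 detected on both arrays, of which ZNF467 was called. Of its other genes, ZNF425 was detected on the knockdown-labelled array alone and ZNF777 on the control array alone. Some runs lay to 1 side of 0 among genes detected on both arrays. In that from ZNF320 to ZNF415 on chromosome 19, the 2 such genes were at -0.80 and -0.24. In that from ZNF579 to ZNF580 on chromosome 19, the 3 such genes lay from 0.16 to 1.82. Over the 9346 named probes 9.53% were higher and 10.4% lower, and each run holds too few genes for its share to be read.

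**Figure D4:**
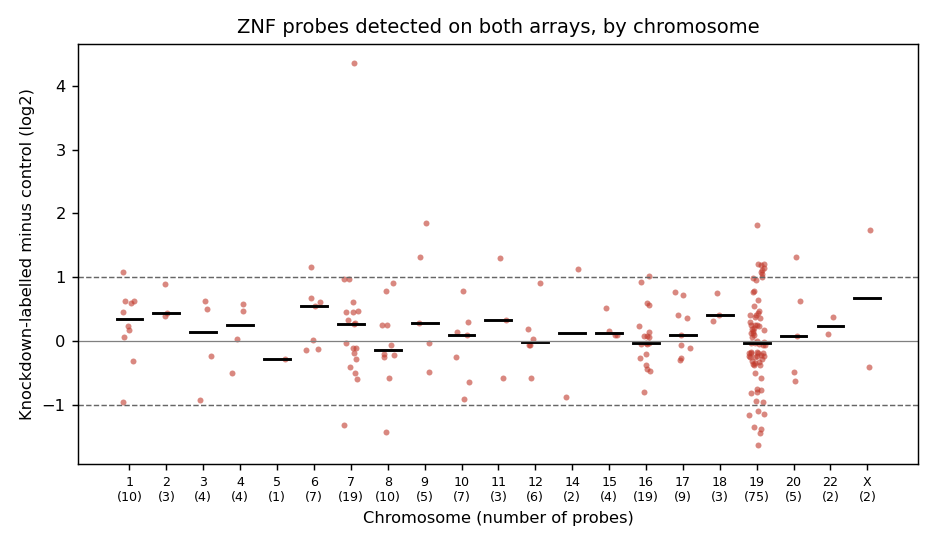
Knockdown-labelled minus control difference (vertical axis, log2) of 200 ZNF probes detected on both arrays, by chromosome (horizontal axis, with the number of probes), where points are probes, thick bars are medians and dashed lines mark 2-fold. Chromosome 19 has 75 probes spread from -1.63 to 1.82, and 2 probes of other chromosomes lie below the lower dashed line.

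Probes of 1 gene did not always move together. Of 34 genes with several member probes, 19 had the same sign on all of them, and 3 had a gap over 1 on the log2 scale. ZNF682 was called in both directions. Its brighter probe had 774.6 on the knockdown-labelled array and 393.1 on the control array (1.21), while its dimmer probe had 97.8 (knockdown-labelled) against 190.9 (control), a difference of -1.36. The annotation gives both the same transcript. ZNF789 had 95.9 on the knockdown-labelled array and 182.0 on the control array by 1 probe (-1.32), and 241.4 (knockdown-labelled) against 179.4 (control) by the other, a difference of 0.60. ZNF32 had 103.6 (knockdown-labelled) against 160.3 (control) by 1 probe, a difference of -0.91, and 141.0 (knockdown-labelled) against 122.8 (control) by the other, a difference of 0.30. Over 24 ZNF genes with a pair of probes detected on both arrays, single probes' differences had an SD of 0.55, against 0.34 over 1352 genes of all kinds. The median gap within a pair was 0.26 over the ZNF genes and 0.20 over the 1352. Without replicates the SD is the one measure of error here, and it leaves out variation between cultures. The annotation gives the ZNF789 probes different transcripts, so the SD need not be error alone. Zinc finger genes are alike in sequence, and whether probes bind several of them was not tested.

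**Figure D5:**
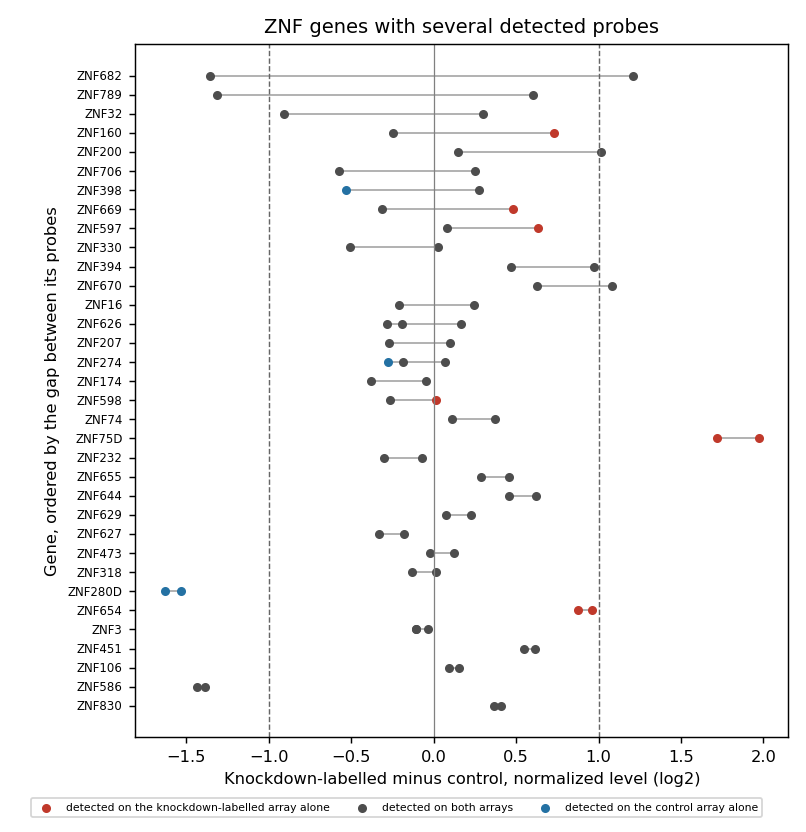
Knockdown-labelled minus control difference (horizontal axis, log2) of each member probe of the 34 ZNF genes with several member probes, 1 gene per line, coloured by the array or arrays that detected the probe. The probes of ZNF682 lie at 1.21 and -1.36, and those of ZNF586 at -1.44 and -1.39.

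Members known for work on RNA and ribosomes lay within 2-fold on the normalized scale, though ZNF593 passed it without quantile normalization (-1.01). Of 8 such genes listed, 6 were detected on at least 1 array, and of their 6 probes detected on both arrays 0 were called, beside 19.9% of the 9346, with a median of -0.09. With 6 probes this says little about the group. ZNF593, whose yeast relative helps export the large ribosomal subunit, came closest, with 913.4 on the knockdown-labelled array and 1962.4 on the control array (-0.96). ZNF622, which in yeast has a relative that matures the same subunit, had 1763.0 (knockdown-labelled) against 2487.0 (control), a difference of -0.29. ZNF598, the ubiquitin ligase that marks collided ribosomes, had 599.3 (knockdown-labelled) against 782.2 (control) by its brighter probe, a difference of -0.26. ZNF106, linked to splicing in mouse, had 694.1 (knockdown-labelled) against 720.0 (control) by 1 probe, a difference of 0.09, and 723.8 (knockdown-labelled) against 723.3 (control) by the other, a difference of 0.15, and ZNF326, which joins transcription with splicing, had 129.5 (knockdown-labelled) against 99.8 (control), a difference of 0.59. ZNF385A was detected on the knockdown-labelled array alone, at 92.4 against 64.1 on the control array, where no fold can be given.

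Among members of other described roles, 3 were at least 2-fold higher and 0 lower on the normalized scale. Of the higher ones, only ZNF462 was at least 2-fold in all 4 alternative treatments of the signals. Of 26 genes listed, 19 were detected on at least 1 array. Of their 22 probes detected on both arrays 13.6% were higher and 0.0% lower, beside 9.53% and 10.4% of the 9346. Their median was 0.31, with 16 of 22 above 0, beside 45.9% of the 9346 named probes. The 3 higher were ZNF462 (1.86), ZNF76 (1.16) and ZNF219, a partner of SOX9 in cartilage, which had 406.2 on the knockdown-labelled array and 220.6 on the control array (1.13). Without background correction ZNF462 was at 1.24, but ZNF76 (0.71) and ZNF219 (0.93) fell under 2-fold. In that treatment 6.64% of named probes were higher. ZNF76 and ZNF219 were also under 2-fold with an offset of 50 and with the authors' values. ZNF143, an activator of small nuclear RNA genes and many promoters, had 446.2 (knockdown-labelled) against 392.9 (control), a difference of 0.32. The 24 member genes with a ZNF143-type site in a promoter and a brightest probe detected on both arrays had a median difference of -0.09, with 3 higher (ZNF189, ZNF358 and ZNF549) and 1 lower (ZNF586), beside 9.53% higher and 10.4% lower of the 9346. The oncogene ZNF217 had 1218.3 on the knockdown-labelled array and 906.4 on the control array (0.63), ZNF148, which binds GC-rich promoters, had 455.8 (knockdown-labelled) against 333.0 (control), a difference of 0.62, and ZNF281, linked to stem cell states, had 433.8 (knockdown-labelled) against 406.1 (control), a difference of 0.23. ZNF207, which guards the attachment of chromosomes in mitosis, had probes at -0.27 and 0.10. ZNF274, which brings SETDB1 to the ends of other ZNF genes, had 399.2 on the knockdown-labelled array and 414.8 on the control array by its brightest probe (0.07). Its other member probes were at -0.19, detected on both arrays, and at -0.28, detected on the control array alone. ZNF644, a partner of the G9a methyltransferase, was at 0.46 and 0.62, ZNF609 at 0.52, ZNF827 at 0.47, ZNF503 at 0.78 and ZNF532 at 0.31. ZNF318 had probes at 0.01 and -0.13, and ZNF384 and ZNF395 were at -0.07 each. ZNF410, which in human cells activates CHD4 above all other genes, had 267.6 on the knockdown-labelled array and 491.5 on the control array (-0.89), while the probes of CHD4 itself were at 0.44 and 0.55. ZNF335 was detected on the knockdown-labelled array alone, at 97.9 against 87.7 on the control array. Not detected on either array were ZNF350, ZNF423, ZNF516, ZNF521, ZNF592, ZNF687 and ZNF703.

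The corepressors that KRAB members work through had a median difference near 0. Of 25 listed genes on the array, 23 were detected, and of their 26 probes detected on both arrays 1 was higher and 3 lower, which is 3.85% and 11.5%, beside 9.53% and 10.4% of the 9346, with a median of -0.01. TRIM28 had 643.2 on the knockdown-labelled array and 726.4 on the control array (-0.05), and SETDB1 had 174.5 (knockdown-labelled) against 147.6 (control), a difference of 0.37. CBX5, the heterochromatin protein HP1 alpha, had 881.2 on the knockdown-labelled array and 266.5 on the control array (2.02). UHRF1, which holds DNA methylation through replication, had 449.4 (knockdown-labelled) against 1358.5 (control) by its detected probe, a difference of -1.54. MTA1, of a histone deacetylase complex, had 206.1 (knockdown-labelled) against 426.9 (control), a difference of -1.11, and SUMO3, a small modifier protein, had 639.1 (knockdown-labelled) against 1390.5 (control), a difference of -1.01. The related CBX1 was at -0.06 and CBX3 at 0.53 by its brightest probe.

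Of the genes with a heat shock element of 2 units in a promoter, 21 had a brightest probe detected on both arrays, and their median difference was -0.05. By that probe 4 were higher (ZNF219, ZNF486, ZNF549 and ZNF682) and 2 lower (ZNF586 and ZNF787), beside 9.53% higher and 10.4% lower of the 9346. Counted over any called probe, 6 of the 21 called genes with a promoter held the element, beside 29 of 190 member genes and 900 of 7352 detected genes. At the detection threshold, the ZNF probes just inside were those of ZNF442, ZNF385A and ZNF805, with signals of 92.2 to 92.4 on the knockdown-labelled array, and those just outside were ZNF300, ZNF543 and ZNF558, with signals of 94.1 to 95.8 on the control array.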

How the data were processed

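Total RNA of 2 KYN2 lines was labelled with biotin and hybridised to Illumina HumanWG-6 BeadChips, 1 array per group. The deposited table gives a bead signal, an intensity on a linear scale, with no normalization recorded, per the file headers. Beside it stands the authors' detection value, a fraction that rises with signal; the headers name it a p, but it was read as 1 minus p. A second table of the authors holds processed log2 values centred near 0 (column medians -0.00275 for the knockdown-labelled array and 0.00222 for the control array). The baseline of that centring is unknown. Its column differences had a slope of 0.981 on the signals' log2 ratio (r = 0.996) over 10803 probes detected on both arrays, which settled direction and scale.

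Signals were processed by the neqc function (limma 3.58.1, R 4.3.3), in which a background estimated through the detection p is removed, 16 is added, and quantile-normalized values are put on the log2 scale. The added offset understates folds of dim probes. Names came from the 2016 platform annotation, which left 21212 probes unnamed and 13 with several symbols, against 27577 with 1. All 257 member probes matched a protein-coding gene in the NCBI gene table. Calls rest on size alone, because 1 array per group allows no test. Named were the 12 largest differences each way among probes detected on both arrays, the 6 largest bounds each way, the listed role genes, corepressors changed at least 2-fold, genes whose probes lie over 1 apart and 3 probes on each side of the threshold. Genes named beyond these, among them other called members, members of runs and CBX1, CBX3 and CHD4, were chosen after their values were seen. The members and the gene lists were chosen with earlier results of these data known. The procedure was also run on simulated data made from the control array, in which only probes past the stricter detection threshold there were changed. Its outcome is not given here, and it does not cover the dim members. Background, normalization, offset, source of values, detection threshold, fold and probes per gene were varied.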

Additional observations from a re-analysis of the deposited data

How the results depend on the processing

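Without background correction 11 ZNF probes were at least 2-fold higher and 5 lower, against 18 and 9 as reported. With an offset of 50 and with the authors' deposited values 12 were higher and 5 lower each, and without quantile normalization 24 were higher and 8 lower. The stricter detection threshold left 11 higher and 5 lower, with 74 probes detected on the knockdown-labelled array alone and 6 on the control array alone. It was met from a signal of 119.7 on the knockdown-labelled array and from 160.6 on the control array. A threshold of 0.95 gave 25 higher and 13 lower. Bounds of at least 2-fold, 5 on the knockdown-labelled array and 1 on the control array, became 0 and 0 without background correction, 2 and 1 with an offset of 50, and 6 and 1 without quantile normalization, in alternatives chosen after seeing the data. At 1.5-fold 44 were higher and 23 lower, and at 3-fold 4 were higher and 1 lower. With 1 probe per gene 18 were higher and 6 lower. The median ZNF difference ran from 0.03 to 0.14 over these settings, and the median of chromosome 19 probes from -0.05 to 0.08. Of the 24 probes named for the largest differences, 0 changed direction in the 4 treatments of the signals. All 4 start from the same arrays and the probes were picked for large differences, so this is no check of repeatability. Among these 24 probes, 21 were at least 2-fold. Of the 21, 15 stayed so without background correction, 19 without quantile normalization, 16 with an offset of 50 and 16 with the authors' values. Those lost without background correction were ZNF341 (0.99), ZNF76 (0.71), ZNF682 by its dimmer probe (-0.84), ZNF789 (-0.80), ZNF585A (-0.66) and ZNF480 (-0.71). Higher and lower shares over all named probes were 6.64% and 6.44% without background correction and 10.1% and 9.81% without quantile normalization. They were 7.47% and 7.61% with an offset of 50 and 7.03% and 7.0% with the authors' values. No such shares are given here for the other detection thresholds and folds or for 1 probe per gene. The cause of the changes between settings was not tested. Most members lie near background, so folds of dim probes are the least certain. No paired analysis was possible because each group has 1 array. The planned comparison of members with and without a KRAB domain was not run, since no protein sequences were used here.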

Other observations

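Other families of zinc finger genes showed a different balance of calls in places. Of 22 ZBTB probes detected on both arrays, whose proteins join zinc fingers to a BTB domain, 5 were higher on the knockdown-labelled array by 2-fold or more and 1 was lower, which is 22.7% and 4.55%, and their median difference was 0.48. Of 13 ZSCAN or ZKSCAN probes, which carry a SCAN domain, 2 were higher and 1 lower, with a median of -0.02. Of 6 ZFP probes 2 were higher and 0 lower, with a median of 0.03. Of 7 ZC3H probes, whose fingers are of another kind and bind RNA, 0 were called, with a median of -0.04. Over all named probes 9.53% were higher and 10.4% lower. Differences between these families were not tested.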
